A study of Mus musculus with 12 samples.

Results

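The super-enhancers (SEs) at Otx2, Smarcad1 and Med13l were described in mouse embryonic stem cells (ESCs) with and without the transcription factor ESRRB, by ChIP-seq of the Mediator subunit MED1 and of the histone mark H3K27ac. These SEs were covered by 10 of the 671 subregions with deposited values. They were chosen by position, as every subregion in a fixed window of chromosome 14 around Otx2, of chromosome 6 around Smarcad1 or of chromosome 5 around Med13l in mouse genome build mm9, and the rule itself uses no ChIP-seq value, although the genes were picked with earlier results of these data known. The nearest subregion outside a window was 710287 bp away. The study names all 3 genes among those of its class I, whose SEs hold at least 1 subregion without CpG methylation in ESCs and in the later epiblast stem cells (EpiSCs).

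The series held 12 libraries in 6 groups of 2, which were MED1 ChIP, H3K27ac ChIP and input from each of 2 genotypes. The control cells were Esrrb f/f ESCs, which carry floxed, undeleted Esrrb alleles and are called wild-type in some labels. The knockout cells were Esrrb-/- ESCs of a knockout line made earlier. Each genotype was 1 line, so a difference between genotypes and a difference between lines cannot be told apart. Both were grown on gelatin in serum with leukaemia inhibitory factor (serum/LIF), which keeps ESCs in a mixed naive state. The files held 1 RPKM (reads scaled by the length of the subregion and by a read total) for each mark, genotype and subregion, pooled over the 2 replicate libraries, so that the spread between replicates is unknown and no p-value could be given. All values times the subregion length were whole multiples of 1 step per file. Taking 1 step as 1 read, the 671 subregions held 291893 (Esrrb f/f) and 130733 (Esrrb-/-) MED1 reads and 618492 and 730828 H3K27ac reads, and every 95% interval given here was computed from these reads and covers counting error only. The read totals that these steps imply for the scaling (424897 and 230504 for MED1, 1396982 and 1183707 for H3K27ac) are far below the size of a ChIP-seq library, so the RPKM are not per total library reads or 1 step is more than 1 read. Which of these holds is not stated, levels are therefore read only relative to other subregions, and the intervals hold for 1 read per step. Fewer reads on MED1 in Esrrb-/- cells make the intervals of that mark wider. Differences between genotypes in ChIP efficiency and in occupancy cannot be told apart from these values.

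MED1 is a subunit of Mediator, the large complex that carries regulatory input from transcription factors bound at enhancers to RNA polymerase II at promoters, and its density over long stretches of DNA was one of the measures by which SEs were first defined. H3K27ac is an acetylated lysine on the tail of histone H3, deposited by the p300 and CBP acetyltransferases, that marks active enhancers and promoters. ESRRB is an orphan nuclear receptor of the naive pluripotency network that binds extended half-sites with the core AAGGTCA. Otx2 encodes a homeodomain factor of primed pluripotency and of the anterior neural plate, Smarcad1 encodes a SNF2-family ATPase that remodels nucleosomes, and Med13l encodes a subunit of the Mediator kinase module, so its product acts in the same complex as the protein measured here.

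Within an SE, a PU (persistently unmethylated) subregion lacks CpG methylation in ESCs and in EpiSCs, whereas a DM (differentially methylated) subregion lacks it in ESCs and gains it in EpiSCs. The 10 subregions were 3 of the 183 PU and 7 of the 488 DM subregions. Subregions closer together than the usual stitching distance for SEs were joined into a block, which gave 4 of the 225 blocks of the whole set. Otx2 had 1 block of 1 PU and 1 DM subregion. Smarcad1 had 1 block of 1 PU subregion between 2 DM subregions. Med13l had a distal block of 1 PU and 2 DM subregions and a proximal block of 2 short DM subregions and no PU subregion. Taken alone, the proximal block does not meet the class I definition. Whether the study joins it to the distal block in 1 SE was not used here. Otx2, Smarcad1 or Med13l was the protein-coding gene with the closest annotated transcript start for each of its own subregions.

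The following sequences show the core letters of the ESRRB half-site where these subregions hold them, since the comparison is between cells with and without that factor. AAGGTCA was searched on both strands of mm9 and was found 6 times, in 4 of the 10 subregions. Each line gives 5′ to 3′ the strand on which the match reads AAGGTCA, with the match in capitals and 30 bases on each side in lower case, and positions are counted from 1 at the first base of the subregion.
Otx2 DM, chr14:49281797-49281863, plus strand: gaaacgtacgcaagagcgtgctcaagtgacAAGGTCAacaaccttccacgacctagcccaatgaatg
Smarcad1 DM 2, match at position 576, chr6:64973440-64973506, minus strand: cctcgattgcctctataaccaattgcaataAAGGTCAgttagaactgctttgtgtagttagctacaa
Smarcad1 DM 2, match at position 748, chr6:64973612-64973678, plus strand: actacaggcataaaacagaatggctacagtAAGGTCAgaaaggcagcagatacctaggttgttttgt
Med13l distal PU, chr5:118886555-118886621, plus strand: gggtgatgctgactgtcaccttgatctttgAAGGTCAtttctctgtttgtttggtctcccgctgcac
Med13l distal DM 2, match at position 2425, chr5:118895995-118896061, minus strand: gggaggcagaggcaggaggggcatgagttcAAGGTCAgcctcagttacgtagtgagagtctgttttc
Med13l distal DM 2, match at position 2700, chr5:118896270-118896336, minus strand: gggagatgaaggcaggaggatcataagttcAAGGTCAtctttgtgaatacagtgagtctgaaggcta

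The match in Otx2 DM lies inside the Otx2 gene and in no annotated exon, and the other 5 lie between genes. No AAGGTCA was found in Otx2 PU or Smarcad1 PU. The letters TAATCC, the core read by OTX-type homeodomains, were found 10 times in 7 of the 10 subregions, both Otx2 subregions among them. With PU and DM pooled, TAATCC was present in 75.7% of the 136 subregions of similar length to Otx2 PU. For Otx2 DM the share was 65.3% of 176, so a match was usual at the length of either Otx2 subregion. The share was lower for the shorter Smarcad1 PU (25.4%) and Smarcad1 DM 1 (38.4%), which also held matches. The limits of similar length are given with the motif counts below. For the Otx2 locus the sequences are shown with the match in capitals.
Otx2 PU, chr14:49274032-49274097, minus strand: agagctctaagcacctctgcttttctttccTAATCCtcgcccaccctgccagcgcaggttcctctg
Otx2 DM, chr14:49281639-49281704, minus strand: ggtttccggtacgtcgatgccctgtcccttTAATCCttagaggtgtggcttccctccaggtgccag

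Smarcad1 PU had the highest MED1 value of all 10 subregions, and 300 bases of it are printed with TAATCC and its reverse complement GGATTA in capitals. The 256 bases of Med13l proximal DM 1 are printed whole, as the DM subregion with the lowest MED1 fold change of the 7, and hold no match to any motif searched.
Smarcad1 PU, chr6:64972061-64972360, plus strand: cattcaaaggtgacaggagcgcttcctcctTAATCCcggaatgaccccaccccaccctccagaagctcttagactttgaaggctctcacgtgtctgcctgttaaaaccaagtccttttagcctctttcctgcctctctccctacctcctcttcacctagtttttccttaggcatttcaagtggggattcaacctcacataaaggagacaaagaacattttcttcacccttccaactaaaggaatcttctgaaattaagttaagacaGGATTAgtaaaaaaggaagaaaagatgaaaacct
Med13l proximal DM 1, chr5:118951712-118951967, plus strand: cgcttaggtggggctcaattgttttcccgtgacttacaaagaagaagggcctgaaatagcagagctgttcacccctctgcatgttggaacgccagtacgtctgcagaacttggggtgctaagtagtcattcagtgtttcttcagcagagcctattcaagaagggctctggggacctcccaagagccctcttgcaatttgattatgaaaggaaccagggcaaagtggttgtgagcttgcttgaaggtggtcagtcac

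Otx2 (ENSMUSG00000021848.9) lies on the minus strand at chr14:49277354-49287319, and summed over its SE both marks were lower in Esrrb-/- cells, with MED1 lower at the PU subregion and not at the DM subregion. Otx2 PU (chr14:49273400-49276025, 2625 bp) is intergenic and begins 1329 bp past the 3′ end of the gene. Its MED1 value was 795 RPKM in control and 319 RPKM in knockout cells, from 887 and 193 reads. MED1 was therefore 2.49-fold lower without ESRRB, its log2 fold change was -1.32 (-1.55 to -1.09, the 95% counting interval), and this was the seventh lowest among the 183 PU subregions. H3K27ac at Otx2 PU was 559 RPKM in control and 267 RPKM in knockout cells. This was 2.09-fold lower, a log2 fold change of -1.06 (-1.19 to -0.95), with 2.20% of the other PU subregions lower still. Among PU subregions, Otx2 PU thus lay above the middle in Esrrb f/f cells, with 58.8% of the others below it in MED1 and 63.7% in H3K27ac, and near the bottom in Esrrb-/- cells, with 7.69% and 12.6% below it. Both log2 fold changes were below 0 on every scale tried, between -1.54 and -1.04 in each mark.

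Otx2 DM (chr14:49280630-49282658, 2028 bp) lies inside the gene. It covers 779 bp of annotated exon, of which 273 bp are coding, and the starts of 2 annotated transcripts (Otx2-003 and Otx2-005). MED1 was low there in both genotypes, at 226 RPKM in control and 222 RPKM in knockout cells (195 and 104 reads). The log2 fold change was -0.02 (-0.38 to 0.33), an interval that includes 0. H3K27ac was 308 RPKM in control and 170 RPKM in knockout cells, 1.81-fold lower, with a log2 fold change of -0.86 (-1.04 to -0.69). The marks therefore differed at this subregion, and its log2 fold change of MED1 minus that of H3K27ac was 0.83 (0.45 to 1.22), whereas at Otx2 PU it was -0.25 (-0.50 to 0.00).

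Over the whole Otx2 block MED1 was 547 RPKM in control and 277 RPKM in knockout cells, a log2 fold change of -0.98 (-1.17 to -0.80). H3K27ac over the block was 450 RPKM and 224 RPKM, a log2 fold change of -1.0 (-1.10 to -0.91), the eighth lowest of all 225 blocks. Counted from the lowest of the 225 blocks, the Otx2 block ranked 12 in MED1 and 13 in H3K27ac of Esrrb-/- cells, compared with 75 and 64 in Esrrb f/f cells.

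Smarcad1 (ENSMUSG00000029920.6, chr6:64992661-65066044, plus strand) had the SE with the most MED1 of the 3 genes. Its 3 subregions lie next to each other in intergenic DNA, and end 20840, 20198 and 17182 bp upstream of the gene start. MED1 was lower in Esrrb-/- cells at all 3, while H3K27ac was lower beyond counting error at the PU subregion and not at the DM subregions. Smarcad1 DM 1 (chr6:64970834-64971821) had a MED1 value of 1295 RPKM in control and 822 RPKM in knockout cells, a log2 fold change of -0.65 (-0.90 to -0.41). Smarcad1 PU (chr6:64971861-64972463, 602 bp) had 2451 RPKM and 1485 RPKM, from 627 and 206 reads, a log2 fold change of -0.72 (-0.96 to -0.49). Smarcad1 DM 2 (chr6:64972895-64975479, 2584 bp) had 1923 RPKM and 1075 RPKM, from 2111 and 640 reads, a log2 fold change of -0.84 (-0.97 to -0.71). MED1 was 1.57-fold, 1.65-fold and 1.79-fold lower in this order, and the 3 intervals overlap.

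On the authors' scale the H3K27ac values at the Smarcad1 DM subregions were close in both genotypes. H3K27ac was 878 RPKM in control and 889 RPKM in knockout cells at DM 1, with a log2 fold change of 0.02 (-0.10 to 0.14). It was 679 RPKM and 671 RPKM at DM 2, and its log2 fold change was -0.02 (-0.10 to 0.07). The PU subregion in the middle had 426 RPKM and 306 RPKM, and its log2 fold change was -0.48 (-0.73 to -0.23). Smarcad1 PU, with more MED1 than 95.1% of the other PU subregions in Esrrb f/f cells, thus had less H3K27ac than either neighbour in both genotypes. Over the Smarcad1 block MED1 was 1850 RPKM in control and 1074 RPKM in knockout cells, a log2 fold change of -0.78 (-0.89 to -0.68). H3K27ac over the block was 689 RPKM and 670 RPKM, a log2 fold change of -0.04 (-0.11 to 0.03), whose sign depended on the scaling: it was 0.067 when centred on the median of chromosome 6 and -0.52 when scaled to the reads in all subregions, where MED1 was -0.51. The gap between the marks at this block was thus seen on the authors' scale and not when scaled to the reads in all subregions. Even with its lower value, the block held more MED1 in Esrrb-/- cells than 83.0% of the other blocks, compared with 92.9% in Esrrb f/f cells.

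Med13l (ENSMUSG00000018076.8, chr5:119010728-119215444, plus strand) had its 2 blocks far upstream of the gene start, in intergenic DNA, and they gave different values. On the authors' scale the distal block held more H3K27ac and slightly less MED1 without ESRRB, whereas in the proximal block MED1 was lower beyond counting error at 1 of the 2 subregions. Med13l distal PU (chr5:118884811-118887671, 2860 bp) ends 123057 bp upstream of the gene start. MED1 there was 825 RPKM in control and 749 RPKM in knockout cells, a log2 fold change of -0.14 (-0.30 to 0.02). H3K27ac was 635 RPKM and 1060 RPKM, from 2536 and 3589 reads. It was 1.67-fold higher, a log2 fold change of 0.74 (0.67 to 0.81), and the one value of the 10 in either mark that was at least 1.5-fold higher in Esrrb-/- cells. This value lay in the middle of its type, since 54.4% of the other PU subregions had a lower H3K27ac log2 fold change and the median over all 183 was 0.66. It was above 0 on every scale tried, and lowest at 0.26 when scaled to the reads in all subregions.

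Med13l distal DM 1 (chr5:118887676-118888683, 1007 bp) adjoins the PU subregion. Its MED1 value was 374 RPKM in control and 448 RPKM in knockout cells, a log2 fold change of 0.26 (-0.11 to 0.63), the one value above 0 among the 10 for this mark. Its H3K27ac value was 746 RPKM and 906 RPKM, a log2 fold change of 0.28 (0.16 to 0.40), which became -0.20 when scaled to the reads in all subregions. Med13l distal DM 2 (chr5:118893601-118896348, 2747 bp) had MED1 values of 778 RPKM and 565 RPKM, a log2 fold change of -0.46 (-0.64 to -0.28), which became 0.08 when centred on the median of chromosome 5. Its H3K27ac values were 639 RPKM and 676 RPKM, a log2 fold change of 0.08 (-0.00 to 0.17). Over the distal block MED1 was 737 RPKM and 627 RPKM, a log2 fold change of -0.23 (-0.34 to -0.12), and H3K27ac was 653 RPKM and 877 RPKM, a log2 fold change of 0.42 (0.37 to 0.47). The direction of both block values depended on the scaling, with MED1 at 0.045 and H3K27ac at -0.055 when scaled to the reads in all subregions.

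The proximal block was the shortest and least covered of the 4. Med13l proximal DM 1 (chr5:118951712-118951967, 255 bp) ends 58761 bp upstream of the gene start, and had MED1 values of 969 RPKM in control and 408 RPKM in knockout cells from 105 and 24 reads. MED1 was 2.37-fold lower, a log2 fold change of -1.24, with a wide interval of -1.95 to -0.60. Its H3K27ac values were 340 RPKM and 248 RPKM, a log2 fold change of -0.45 (-0.89 to -0.02). Med13l proximal DM 2 (chr5:118959568-118959808, 240 bp) had MED1 values of 637 RPKM and 416 RPKM from 65 and 23 reads, a log2 fold change of -0.62 (-1.37 to 0.09), so that at this depth no difference was detectable. It had the highest H3K27ac value of the 10 in both genotypes, 972 RPKM in control and 1186 RPKM in knockout cells, a log2 fold change of 0.29 (0.06 to 0.51) that became -0.19 when scaled to the reads in all subregions. Over the proximal block MED1 was 808 RPKM and 412 RPKM from 170 and 47 reads, a log2 fold change of -0.97 (-1.47 to -0.50), and H3K27ac was 646 RPKM and 703 RPKM, a log2 fold change of 0.12 (-0.08 to 0.32).

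**Figure D1:**
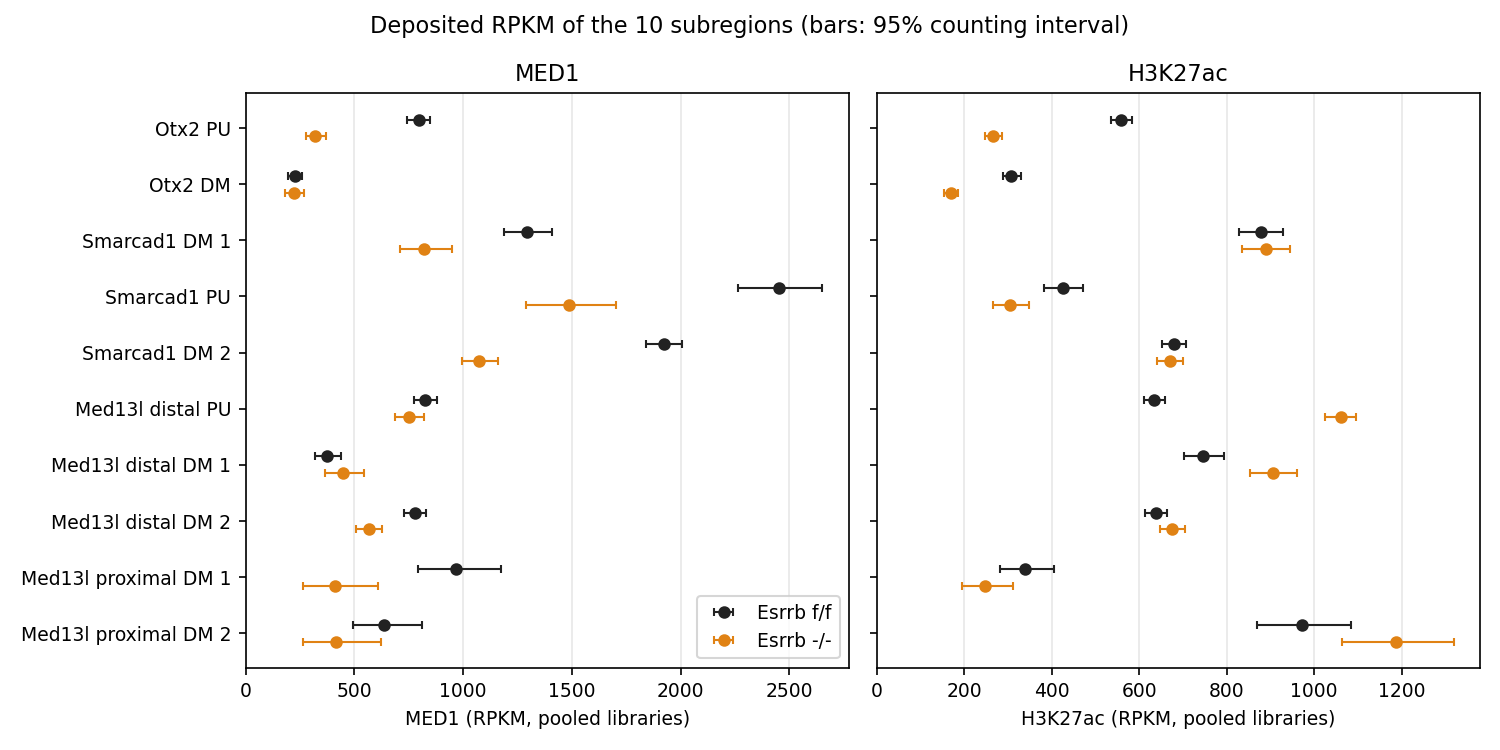
Deposited RPKM of MED1 (left) and H3K27ac (right) on linear axes for each of the 10 subregions, in Esrrb f/f (black) and Esrrb-/- (orange) ESCs; points are values pooled over 2 libraries and bars are 95% Poisson intervals of the reads. MED1 at the 3 Smarcad1 subregions spans 1295 to 2451 RPKM in Esrrb f/f cells and 822 to 1485 RPKM in Esrrb-/- cells, while Med13l distal PU stands out with H3K27ac of 635 and 1060 RPKM.

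The plot of levels shows the order of the subregions in each condition. In MED1 of Esrrb f/f cells the 3 Smarcad1 subregions came first, from 2451 RPKM at the PU subregion down to 1295 RPKM, and Otx2 DM came last at 226 RPKM. The 5 values between 969 and 637 RPKM (Med13l proximal DM 1, Med13l distal PU, Otx2 PU, Med13l distal DM 2 and Med13l proximal DM 2) could not each be separated from the next among the 5 by counting error, whereas the first was separated from Smarcad1 DM 1 above it and the last from Med13l distal DM 1 below it, at 374 RPKM. In MED1 of Esrrb-/- cells the Smarcad1 subregions again came first, at 1485 to 822 RPKM. The third of them, DM 1, was not separated from Med13l distal PU at 749 RPKM, and Otx2 PU was in the ninth place, with Otx2 DM last at 222 RPKM. In H3K27ac the order was another one. Med13l proximal DM 2 was highest and Otx2 DM lowest in both genotypes, and the 3 Smarcad1 subregions did not stand together. In Esrrb f/f cells Med13l proximal DM 2 was not separated from Smarcad1 DM 1 (972 and 878 RPKM), and in Esrrb-/- cells it was not separated from Med13l distal PU (1186 and 1060 RPKM).

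**Figure D2:**
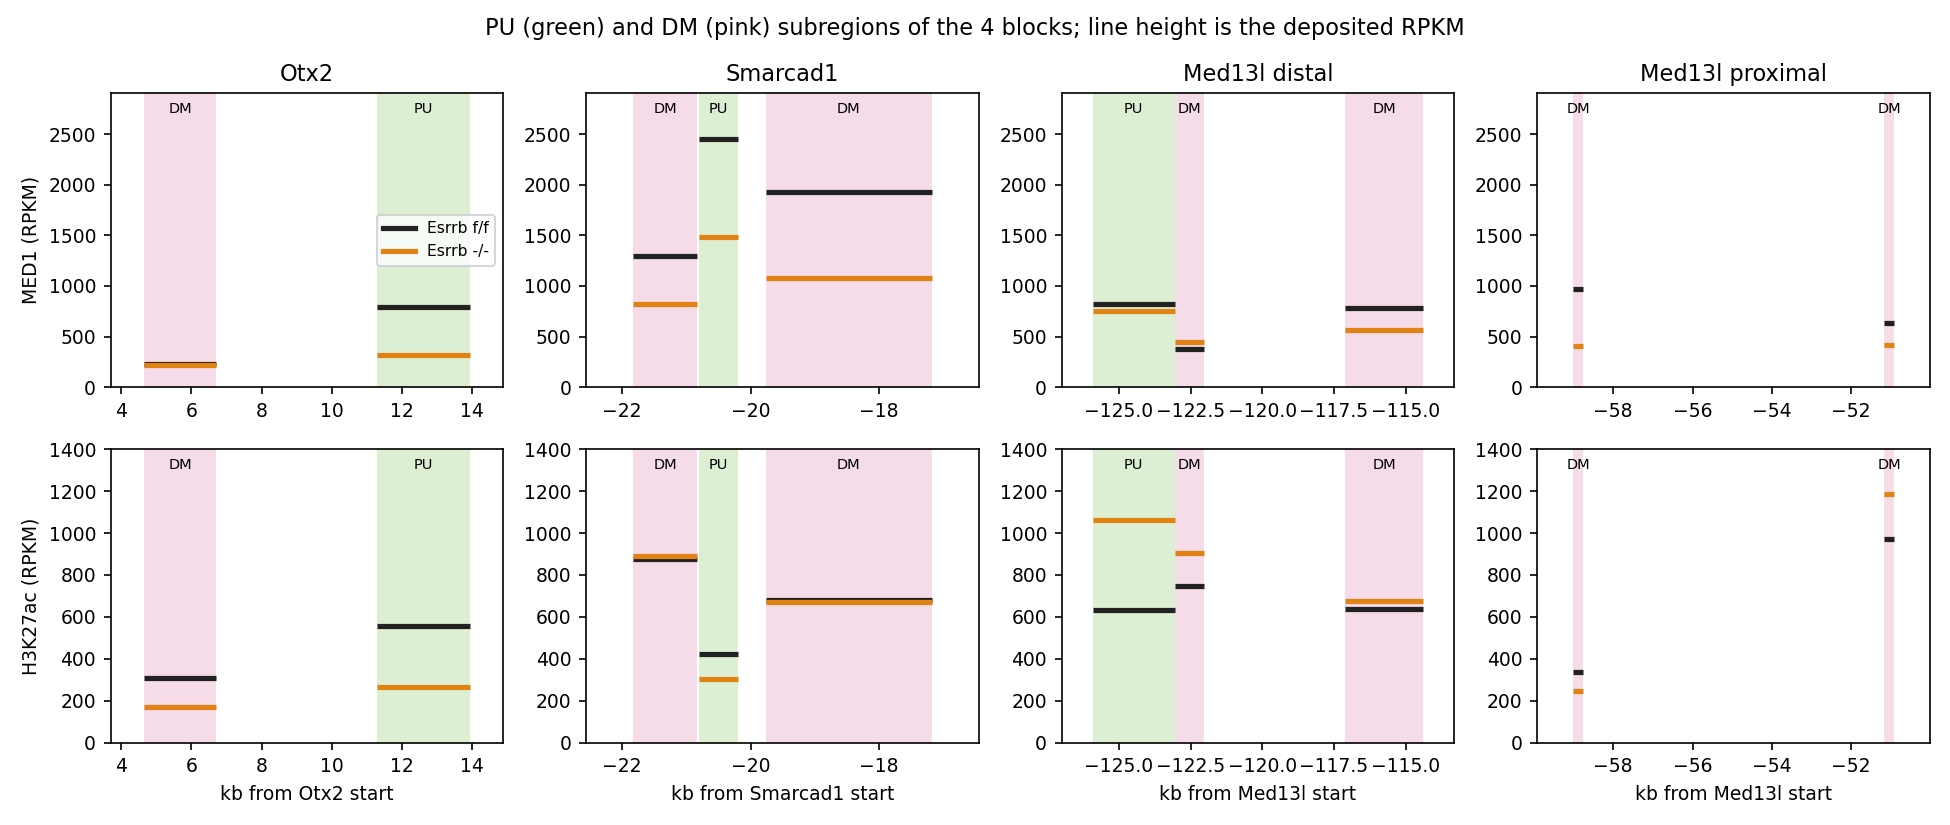
RPKM of MED1 (top row) and H3K27ac (bottom row) along the 4 blocks, with distance in kb from the start of the named gene (positive is downstream); green and pink bands are PU and DM subregions, black lines Esrrb f/f and orange lines Esrrb-/- values. The Otx2 DM band shows MED1 lines on top of each other at 226 and 222 RPKM while the lines in the PU band lie apart at 795 and 319 RPKM, and the proximal Med13l bands are narrow at 255 and 240 bp.

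Counted over the 10 subregions, MED1 was at least 1.5-fold lower in Esrrb-/- cells at 6, against 26.8% of all 671 subregions (180). These were Otx2 PU, the 3 Smarcad1 subregions and both proximal Med13l subregions, of which Med13l proximal DM 2 had an interval that includes 0. The MED1 interval lay wholly below 0 at 6 of the 10 and at 265 of all 671. No subregion of the 10 was at least 1.5-fold higher, against 14.8% of all subregions (99). Split by type, 2 of the 3 PU and 4 of the 7 DM subregions were at least 1.5-fold lower in MED1, against 16.4% of all PU and 30.7% of all DM subregions. H3K27ac was at least 1.5-fold lower at 2 of the 10, both at Otx2, against 15.1% of all (101), and at least 1.5-fold higher at 1, against 30.6% of all (205). The counts depended on the scaling, since MED1 was at least 1.5-fold lower at 2 of the 10 when scaled to the reads in all subregions, against 17.6% of all on that scale, and H3K27ac at 4, against 31.1%.

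The median log2 fold change of the 10 was -0.64 in MED1, with a range of -1.32 to 0.26 and 9 of 10 values below 0. Over all 671 subregions the median was -0.14, with 389 below 0. In H3K27ac the median of the 10 was 0.00, with a range of -1.06 to 0.74 and 5 of 10 below 0, against a median of 0.24 over all, with 237 below 0. Both marks of the 10 thus had medians lower than those of the whole set. Scaling to the reads in all subregions instead of the authors' total moves every log2 fold change of MED1 by 0.28 and every one of H3K27ac by -0.48. The sign of the MED1 value was the same under every scaling and pseudocount tried at 7 of the 10 subregions, and the exceptions were Otx2 DM, Med13l distal PU and Med13l distal DM 2. For H3K27ac it was the same at 5 of 10, and the exceptions were Smarcad1 DM 1 and DM 2, both distal Med13l DM subregions and Med13l proximal DM 2. The chromosomes of the 3 genes also differed in their medians. The median MED1 log2 fold change was 0.23 over the 31 subregions on chromosome 14 (Otx2), -0.30 over 34 on chromosome 6 (Smarcad1) and -0.54 over 28 on chromosome 5 (Med13l). Relative to the median of its chromosome, the MED1 log2 fold change was -1.54 at Otx2 PU, -0.42 at Smarcad1 PU and 0.40 at Med13l distal PU. The part of chromosome differences in these results was not tested.

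**Figure D3:**
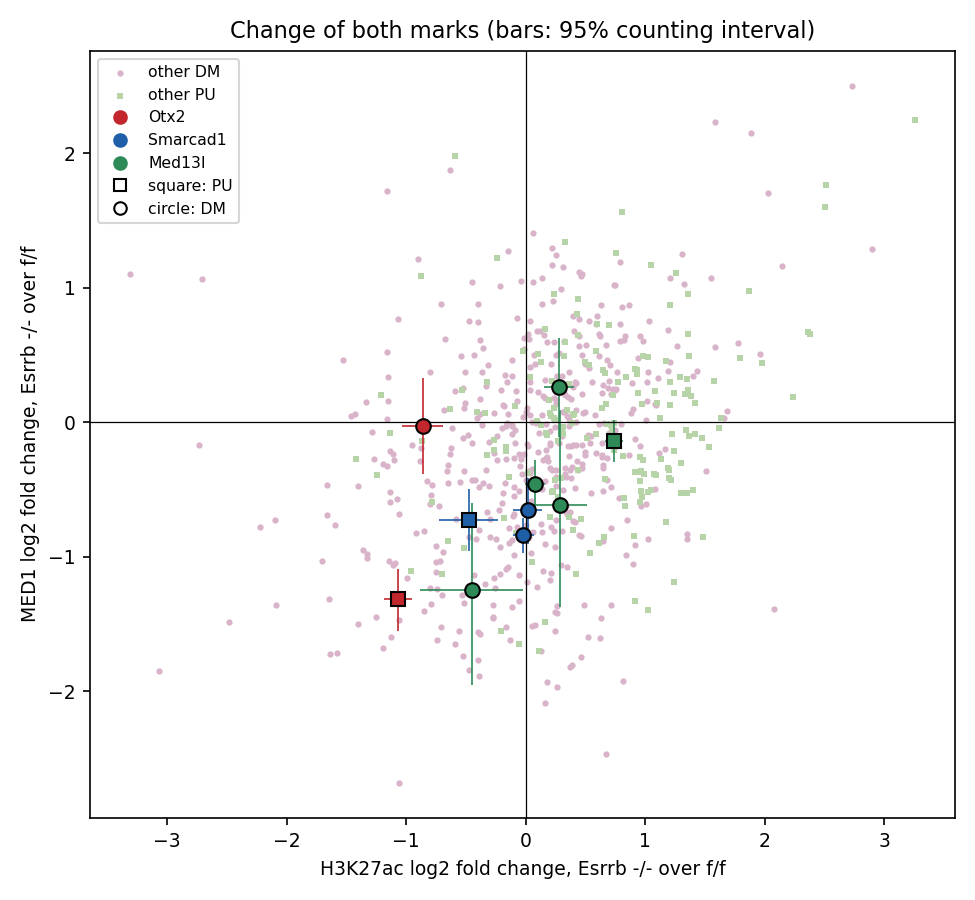
Log2 fold change (Esrrb-/- over Esrrb f/f) of H3K27ac on the horizontal and MED1 on the vertical axis for the 10 subregions (large, coloured by gene, with 95% counting intervals) and the other subregions (small); squares are PU and circles are DM subregions. Otx2 PU lies at -1.06 and -1.32 in the lower left, Med13l distal PU at 0.74 and -0.14 on the right, and the 2 Smarcad1 DM subregions at 0.02 and -0.02 in H3K27ac with MED1 of -0.65 and -0.84.

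The plot of both changes shows that the 3 loci took different places. At Otx2 PU both marks were lower. At the Smarcad1 DM subregions MED1 was lower while the H3K27ac intervals included 0, and the log2 fold change of MED1 minus that of H3K27ac was -0.67 (-0.94 to -0.41) at DM 1 and -0.82 (-0.97 to -0.67) at DM 2. Such gaps were common, with 32.2% and 24.4% of the other DM subregions lower than these 2 values. At Med13l distal PU this difference was -0.88 (-1.05 to -0.71), where H3K27ac was higher and the MED1 interval included 0. A gap of this size was usual for the type, and 42.3% of the other PU subregions had a lower difference. At 9 of the 10 subregions MED1 was the lower of the 2 log2 fold changes, and Otx2 DM was the exception, with 89.3% of the other DM subregions lower than its 0.83. A lower MED1 value was usual on the authors' scale and is not particular to these loci. The difference was below the -0.02 of Med13l distal DM 1 at 63.0% of the other DM subregions. It was below the -0.25 of Smarcad1 PU at 69.8% of the other PU subregions. Of the 9 subregions with the lower MED1 value, 3 (Otx2 PU, Smarcad1 PU and Med13l distal DM 1) had intervals of this difference that include 0. This count depended on the scaling: it was 4 of 10 when scaled to the reads in all subregions, 6 when centred on the median of all subregions and 7 when centred on the chromosome. Smarcad1 DM 2, Med13l distal PU and both proximal Med13l subregions had the lower MED1 value on each of these scales, and Otx2 DM the higher.

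PU and DM subregions of the same block share their locus, so their changes were also compared within the 3 blocks that hold both. In the Otx2 block the MED1 log2 fold change of the DM subregion was higher than that of the PU subregion by 1.29 (0.88 to 1.70), the highest of the 106 blocks with both types. Otx2 DM was already low in MED1 in Esrrb f/f cells, where 8.01% of the other DM subregions were lower. This rank takes no account of such levels. The Otx2 SE had 1.81 less MED1 at the DM than at the PU subregion on the log2 scale in Esrrb f/f cells (-1.81) and 0.52 less in Esrrb-/- cells (-0.52). In the Smarcad1 block the MED1 difference was -0.08 (-0.33 to 0.18) and in the Med13l distal block -0.19 (-0.41 to 0.03), both with intervals that include 0, against a median of 0.01 over the 106 blocks. In H3K27ac the difference was 0.47 (0.22 to 0.72) at Smarcad1, 0.21 (0.00 to 0.41) at Otx2 and -0.60 (-0.70 to -0.49) at Med13l distal, against a median of -0.53. The DM value was above the PU value in 21 of the 106 blocks, Smarcad1 and Otx2 among them, and 92.4% and 88.6% of the other blocks had a lower difference than these. A scaling adds 1 constant to both subregions of a block and cancels in this difference, so the scalings are no check of it.

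**Figure D4:**
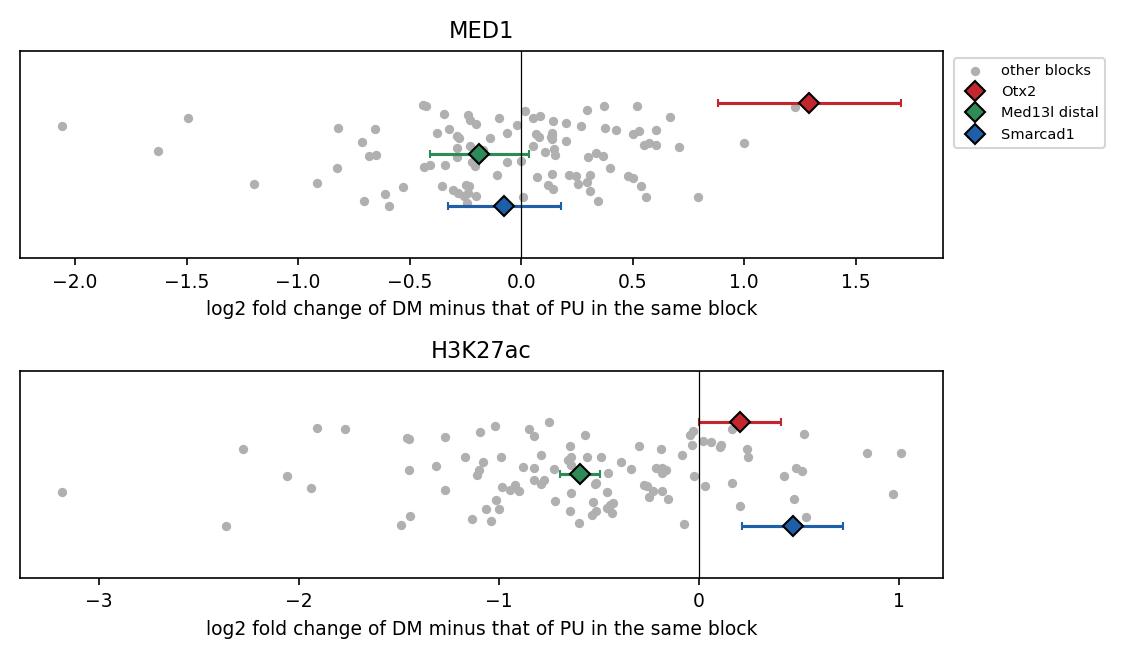
Log2 fold change of DM less that of PU within a block, for MED1 (top) and H3K27ac (bottom), in the 106 blocks with both types; diamonds with bars are the 3 named blocks with 95% counting intervals, and grey points, spread vertically for legibility, are the others. Otx2 lies farthest right in MED1 at 1.29, and Med13l distal at -0.60 in H3K27ac lies near the median of -0.53.

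The subregions differed in base composition. The 3 Smarcad1 subregions were the poorest in G and C of the 10, with 42.6% to 43.6% GC and 7.35 to 9.95 CpG per kb, and at most 12.1% of the other subregions of their type had fewer CpG per kb. Smarcad1 PU had 9.95 CpG per kb against a median of 23.3 over all PU subregions. Both Otx2 subregions were rich in CpG, with 35.4 per kb at the PU and 34.5 per kb at the DM subregion, and 95.7% of the other DM subregions had fewer than Otx2 DM. Med13l distal PU had 23.4 CpG per kb and lay at the median of its type, whereas the distal DM subregions had 15.9 and 10.9 per kb against a DM median of 15.0. The subregions thus lay between 3.30% and 95.7% in CpG density within their types. MED1 was lower in Esrrb-/- cells at the CpG-poor Smarcad1 subregions and at Otx2 PU, where 72.0% of the other PU subregions had fewer CpG per kb. At Otx2 DM, the highest within its type, the MED1 log2 fold change was -0.02 with an interval that includes 0. A relation between CpG density and the change in MED1 was not tested.

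Matches to 6 short motifs were counted on both strands. Windows of 300 bp were cut end to end from the start of each subregion. AAGGTCA was present in 8.33% of the 48 windows of these subregions and in 11.2% of all 2443 windows. Matches across a window edge were missed, here at position 1198 of Otx2 DM and position 2700 of Med13l distal DM 2. The 8.33% therefore covers 4 windows although 6 matches exist, and such losses among all windows were not counted. Both proximal Med13l subregions are shorter than a window and gave none. By subregion, Smarcad1 DM 2 held 2 matches, as did Med13l distal DM 2, and Otx2 DM and Med13l distal PU held 1 each. AAGGTCA was present in 59.6% of the 136 subregions of similar length (0.67 to 1.5 times) to Otx2 PU, which held none, and in 58.6% of the 140 similar to Smarcad1 DM 2. These shares pool PU and DM subregions, while the study reports the ESRRB/NR5A2 motif as enriched among DM subregions alone. How usual it is for a PU subregion to hold none was therefore not shown. The 4 subregions with a match had MED1 log2 fold changes of -0.84, -0.46, -0.14 and -0.02. The 6 without one ranged from -1.32 at Otx2 PU to 0.26 at Med13l distal DM 1. The absence of these letters says nothing about binding of ESRRB, which was not analysed here. TAATCC was present in 20.8% of the 48 windows against 15.0% of all, and Smarcad1 DM 2 held 3 of the 10 matches and Smarcad1 PU 2. ACAATGG, the core read by SOX factors, was present in 6 of the 48 windows against 5.40% of all, as 6 matches in Med13l distal DM 2 (3), Smarcad1 DM 2 (2) and Otx2 PU (1). ATGCAAAT, the octamer read by OCT4, occurred 1 time, in Med13l distal DM 2 (2.08% against 2.70% of windows). GGGTGTGG, read by KLF factors, occurred in Smarcad1 DM 2 and Med13l distal PU (4.17% against 4.91%), and TTCCNGGAA, read by STAT3, in none (against 1.23%). A match is a description of letters and not of a bound site.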

How the data were processed

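MED1 and H3K27ac ChIP-seq of Esrrb f/f and Esrrb-/- ESCs was analysed from the deposited values. The authors trimmed reads with Trimmomatic, aligned them to mm9 with Bowtie2 and removed duplicates with Picard (versions not given in the sources used here), and deposited 1 RPKM per subregion, mark and genotype, without replicate values. How replicates were pooled and what total scaled the RPKM is not stated. The input libraries were not used here.

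Values were matched across marks and genotypes by coordinates and type, and every subregion in the 3 windows was named. Blocks join subregions of 1 chromosome less than the usual SE stitching distance apart. RPKM times length (end minus start) was a whole multiple of 1 step per file for 100% of values (tolerance 1e-06), which gave reads. Scaling implied by 1 step equal to 1 read corresponds to totals of 424897 and 230504 (MED1) and 1396982 and 1183707 (H3K27ac) reads in Esrrb f/f and Esrrb-/- cells. Log2 fold changes are log2((RPKM in Esrrb-/- + 1)/(RPKM in Esrrb f/f + 1)), and on this scale the change of low values is slightly understated. For H3K27ac at Otx2 DM, the lowest of the 10 in that mark, it was -0.858, and -0.862 with a pseudocount of 0.1 RPKM. Intervals (95%) are Clopper-Pearson for ratios, Poisson for levels and by the delta method for differences. Percentiles are shares of the other subregions of the same type. Members, lists and motifs were chosen with earlier results of these data known. Annotation was GENCODE M1 on NCBIM37 (mm9). The interval script was tested on simulated data. Analyses ran in Python 3.11.15 with scipy 1.17.1, pandas 2.3.3 and numpy 2.4.6, and plots in matplotlib 3.10.9. Alternatives were other pseudocounts, scalings, filters on length and reads, and a stricter fold.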

Additional observations from a re-analysis of the deposited data

How the results depend on the processing

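Of the summary values, 112 stayed within their counting interval or within 1.5 times the count under an alternative and 35 moved; of single subregion values 64 stayed and 36 moved. Part of the 112 could not move, so this number is no measure of robustness. Scaling and centring cancel in a DM minus PU difference. The filters on length and reads removed no subregion from the Otx2, Smarcad1 and Med13l distal blocks. No change of pseudocount (0.1 or 10 RPKM) moved a summary value, and the 35 came from scaling, centring and the 2-fold threshold. A filter on length or reads moved none by this rule. With either filter, however, the number of subregions with MED1 at least 1.5-fold lower fell from 6 to 4, which lies on the limit of 1.5 times. This fall came only from leaving out both proximal Med13l subregions, which were among the 6, so the 4 are of a smaller set than the 10. Scaled to the reads in all subregions, the MED1 log2 fold change was -0.70 at the Otx2, -0.51 at the Smarcad1 and 0.045 at the Med13l distal block. On that scale H3K27ac was -1.48 at Otx2, -0.52 at Smarcad1, -0.055 at Med13l distal and -0.36 at Med13l proximal, and its median was -0.48 over the 10 and -0.46 over the DM subregions. Centred on the median of all subregions, MED1 was -0.64 at Smarcad1 and -0.091 at Med13l distal, and H3K27ac was -1.24 at Otx2, -0.28 at Smarcad1, 0.18 at Med13l distal and -0.12 at Med13l proximal, with medians of -0.24 over the 10 and -0.22 over the DM subregions. Centred on the chromosome, MED1 was -1.21 at Otx2, -0.48 at Smarcad1, 0.30 at Med13l distal and -0.44 at Med13l proximal, and H3K27ac was -1.32, 0.067 and 0.32 at the first 3. The number of subregions with MED1 at least 1.5-fold lower was 6. It became 3 centred on all, against 22.2% of all subregions on that scale, and 2 scaled to reads, against 17.6%. Centred on the chromosome it was 2, with either filter 4 and at a 2-fold threshold 2. In MED1, 1 was higher when centred on the chromosome. For H3K27ac the 2 lower became 4 centred on all (21.9% of all subregions), 4 scaled to reads (31.1%) and 1 at 2-fold. The 1 higher became 0 in those same settings, against 19.5% of all subregions centred on all and 12.2% scaled to reads. Shares of all subregions were not computed for chromosome centring, the filters or the 2-fold threshold. The Med13l proximal block has no value with subregions of at least 500 bp, nor for MED1 with at least 100 reads. No paired analysis was possible because the replicate libraries were pooled in the deposited values, and for the same reason no replicate could be left out. The depth limits most the Med13l proximal MED1 values, which rest on 23 and 24 reads per subregion in Esrrb-/- cells.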
